A study of Mus musculus with 6 samples.

Results

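Induced macrophages (iMac) were compared with mouse embryonic fibroblasts (MEF) across all genes, to describe how far the end-point cells had left the fibroblast state. The comparison took 4 of the 6 messenger RNA libraries of the series, 2 of MEF and 2 of iMac, as the submitters' labels name them. The other 2 libraries, of a myeloid-like cell complex (MCC), entered the fit for the estimate of the spread and are not described. Every group is labelled as wild type mouse. The series title gives c-Myc as the single factor behind the change of fibroblasts into macrophages. How the iMac were made, how Myc was supplied, the mouse strain, and whether the libraries of a group came from separate cultures is not stated in the labels, so the p-values measure only the spread between these libraries.

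Fibroblasts build and pull on the extracellular matrix: they secrete collagen and fibronectin, hold on to it through focal adhesions, and contract through actin stress fibres. Macrophages are mobile phagocytes of the blood lineage that take up and digest particles in lysosomes, and they move on thin, branched actin without thick stress fibres. Many parts of the actin, signalling and lysosomal machinery are encoded by a broadly expressed gene and by a paralog that is used mainly in blood cells. The transcription factor PU.1, encoded by Spi1, controls many genes of macrophages.

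All 21 tested genes of stress fibres, 16 of 18 of cell-cell junctions, 18 of 19 of the YAP pathway and 13 of 15 of hedgehog signalling were called lower in iMac, against 32.4% of all genes tested. In the same order these counts were 5, 9, 4 and 7 without iMac library 1 and 4, 9, 3 and 8 without iMac library 2. Lyz2, lysozyme, rose by a log2 fold change of 12.28 ± 0.55 (adjusted p = 0.000214, edgeR), and Apoe, a lipid carrier, by 7.89 ± 0.33. The imprinted RNA H19 fell, with a log2 fold change of -11.21 ± 1.06 (adjusted p = 0.00141, edgeR), and fibronectin (Fn1) with -7.82 ± 0.82. In 28 pairs of a broadly expressed gene and a paralog listed as its blood-cell member, that paralog rose in 27, against 25.1% of all genes tested. The lists and pairs were chosen with earlier results of these data known, so these counts are descriptions and not tests. The shares of 32.4% and 25.1% are those with all libraries. Fewer genes of any kind were called without an iMac library.

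The libraries held 34389817 to 39174367 counts. The test covered 18613 of 30445 listed genes, those with enough counts, and 10717 of them (57.6%) were called at an adjusted p under 0.05 (edgeR quasi-likelihood test, two-sided, Benjamini-Hochberg over all genes tested). These were 4678 genes higher (25.1%) and 6039 genes lower (32.4%) in iMac, and 7588 changed at least 2-fold. The count of called genes was 8935 when MEF library 1 was left out, 8940 for MEF library 2, 5173 for iMac library 1 and 5197 for iMac library 2. The genes that were also called in the same direction in each of the 4 fits that left out 1 MEF or iMac library were 2278 higher (12.2%) and 2361 lower (12.7%). Each gene said below to have risen or fallen was called in all 5 fits, unless the text names the fit in which it did not pass, and both libraries of its higher group lay above both of the other group. Levels within a gene are in CPM, counts scaled to a library total of 1000000, and levels between genes are in TPM, counts per exonic length scaled to the same total. Paired values are libraries 1 and 2 of a group. The shares of all genes tested given beside each list come from the fit with all libraries. Fewer genes were called in the fits that left out 1 library, so list counts from those fits cannot be set beside these shares.

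The cell type labels were checked against markers. All 10 macrophage markers were higher in iMac, among them Csf1r, which receives the growth factor M-CSF, from 0.407 and 0.464 to 2922 and 2698 CPM. Mertk, a receptor for dying cells, rose from 17.5 and 39.1 to 117 and 109 CPM. Mertk did not pass without iMac library 1 (adjusted p 0.053, edgeR). All 10 fibroblast markers were lower, with 7 called in each fit that left out 1 iMac library. Pdgfra, which encodes a PDGF receptor, fell from 173 and 216 to 0.179 and 0.0302 CPM. Over all genes tested the median absolute log2 ratio of library 1 to library 2 was 0.30 in MEF and 0.13 in iMac, so the MEF libraries were the less alike, and MEF library 1 held more RNA of contraction and collagen. The summed level of the 10 macrophage markers was 42.6 and 75.2 TPM in MEF and 40695 and 33678 TPM in iMac. The summed level of the fibroblast markers was 8696 and 3966 TPM in MEF and 6.24 and 4.87 TPM in iMac. In bulk RNA, fewer cells of a type and less RNA per cell cannot be told apart. Myc itself was at 70.7 and 63.1 CPM in MEF and 1022 and 1059.9 CPM in iMac, and whether these counts came from the cells' own gene or from an added copy cannot be told apart.

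Several of the most abundant transcripts of each group were rare in the other. The 10 most abundant genes held 9.43% and 10.3% of all TPM in MEF and 16.7% and 15.6% in iMac, and the 100 most abundant held 27.7% and 26.1% in MEF and 38.7% and 37.7% in iMac. By this measure the iMac transcriptome was the more concentrated, and the ranges of the groups did not overlap. Lyz2, which encodes the antibacterial enzyme lysozyme (chr10:117277331-117282321, GRCm38), was at 4.71 and 10.7 TPM in MEF and 33876 and 27026 TPM in iMac, where it ranked first among nuclear genes with a name, after rank 9837 in MEF. Apoe, the lipid carrier apolipoprotein E, went from 108 and 175 to 29068 and 24549 TPM and ranked second, after 1115 in MEF. Counts of Lyz2 can be shared with its near-identical neighbour Lyz1, and those of Ftl1, Fth1 and Eef1a1 with processed pseudogenes, since how reads with several matches were counted is not stated.

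**Figure D1:**
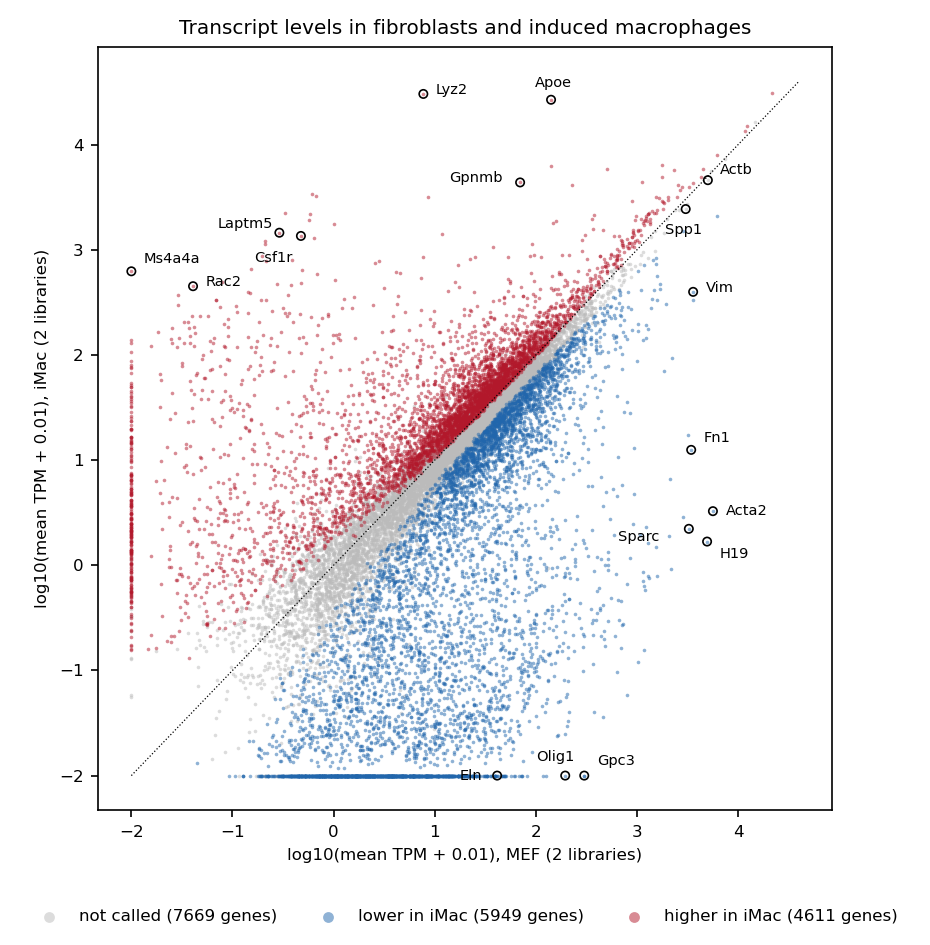
Mean transcript level of each tested gene in 2 MEF libraries (horizontal) and 2 iMac libraries (vertical), as log10 of TPM plus 0.01; red points are genes called higher in iMac, blue points genes called lower, grey points genes not called, and the dotted line marks equal levels. The 384 tested genes without a known exonic length are left out. Lyz2 and Apoe lie near the top, far above the dotted line, Acta2 and H19 lie far to the right and low, and the rows of points at the left and lower edges are genes with no counts in MEF or in iMac.

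After Lyz2 and Apoe, the largest gains in level are given by kind of gene, not by size. Lysosomal proteases and their helpers include the cathepsins Ctsb (from 484 and 522 to 6102 and 5687 TPM), Ctsd (from 1176 and 1049 to 4650.1 and 4248 TPM) and Ctss (from 0.492 and 0.148 to 2394 and 2142 TPM), the asparagine protease Lgmn (from 240.3 and 212 to 4178 and 4139 TPM) and the saposin precursor Psap (from 1684 and 1825 to 6473 and 6348 TPM). Ctsb and Psap were already among the more abundant transcripts of MEF, whereas Ctss was near 0 there. The iron store ferritin gained in its light chain Ftl1 (from 2346 and 2313 to 6004 and 5581 TPM) and heavy chain Fth1 (from 1176 and 2405 to 4941 and 4887 TPM). Membrane and secreted proteins of macrophages made up another kind: the glycoprotein Gpnmb (from 56.4 and 83.6 to 4592 and 4175 TPM), the complement chain C1qb (from 0.175 and 1.02 to 3596 and 3239.9 TPM), the signalling adaptor Tyrobp (from 0.858 and 0.453 to 3144 and 3374 TPM) and the lysosomal marker Cd68 (from 7.21 and 9.78 to 3126 and 3212 TPM). Selenop, which carries selenium out of cells, rose from 49.1 and 232 to 6563 and 6085 TPM, and its level differed more between the MEF libraries than between the iMac libraries. The elongation factor Eef1a1 moved from rank 1 in MEF to rank 3 in iMac, from 12318 and 12178 to 14782 and 15311 TPM. Eef1a1 did not pass without iMac library 1 or without iMac library 2 (adjusted p 0.121 to 0.129, edgeR). Exonic bases shared with another gene made up 34.6% of Ftl1 and 34.4% of Ctsd.

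Of the 15 largest losses, those of contractile, matrix and imprinted transcripts are given here. Acta2, smooth muscle actin (chr19:34241090-34255590, GRCm38), was at 9517 and 1784 TPM in MEF and 2.69 and 3.83 TPM in iMac. H19, an imprinted noncoding RNA of embryonic tissues (chr7:142575529-142578143), was at 4374 and 5526 TPM in MEF and 2.12 and 1.23 TPM in iMac. Fibronectin (Fn1) went from 4546 and 2343 to 11.3 and 13.7 TPM, the matrix glycoprotein Sparc from 4174 and 2358 to 1.79 and 2.63 TPM, thrombospondin 1 (Thbs1) from 5529 and 824 to 17.1 and 17.7 TPM, and the collagen chain Col1a1 from 4412 and 1343 to 3.09 and 2.59 TPM. The log2 fold change of Acta2 was -10.50 ± 2.15 (adjusted p = 0.0117, edgeR). In each of these the groups were far apart, while MEF library 1 was several times higher than MEF library 2 for Acta2, Thbs1 and Col1a1. Acta2, Thbs1 and Col1a1 did not pass without iMac library 1 or without iMac library 2 (adjusted p 0.0675 to 0.098, edgeR). Sparc did not pass without iMac library 1 (adjusted p 0.0519, edgeR).

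Among the other large losses, several transcripts stayed well above 0. Vimentin (Vim), an intermediate filament of mesenchymal and blood cells, went from 3628 and 3575 to 387 and 411 TPM. Galectin 1 (Lgals1) went from 6703 and 5796 to 2058 and 2163 TPM moving from rank 2 to rank 43. The calcium-binding protein S100a11 went from 4351 and 2892 to 323 and 340.0 TPM, its relative S100a6 from 2317 and 2134 to 85.6 and 102 TPM, the tubulin Tuba1a from 1781 and 1942 to 65.3 and 76.4 TPM, and the integrin beta chain Itgb1 from 2571 and 1352 to 311 and 306 TPM. Others were nearly gone in iMac: the secreted glycoprotein Fstl1 (from 2473 and 1840.1 to 1.02 and 0.82 TPM), the collagen chaperone Serpinh1 (from 2636 and 1578 to 5.42 and 7.76 TPM) and the proteoglycan Bgn (from 2893 and 1222 to 1.87 and 1.92 TPM). S100a6 did not pass without iMac library 1 (adjusted p 0.0503, edgeR). Itgb1 and Bgn did not pass without iMac library 1 or without iMac library 2 (adjusted p 0.0535 to 0.0566, edgeR). Fstl1 did not pass without iMac library 2 (adjusted p 0.0502, edgeR). Spp1, which encodes osteopontin, a secreted protein of bone and of macrophages, was abundant on both sides at 1813 and 4267 TPM in MEF and 2737 and 2156 TPM in iMac. Its groups overlapped, and it was not called (log2 fold change 0.03 ± 0.48, 95% interval -1.20 to 1.26).

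**Figure D2:**
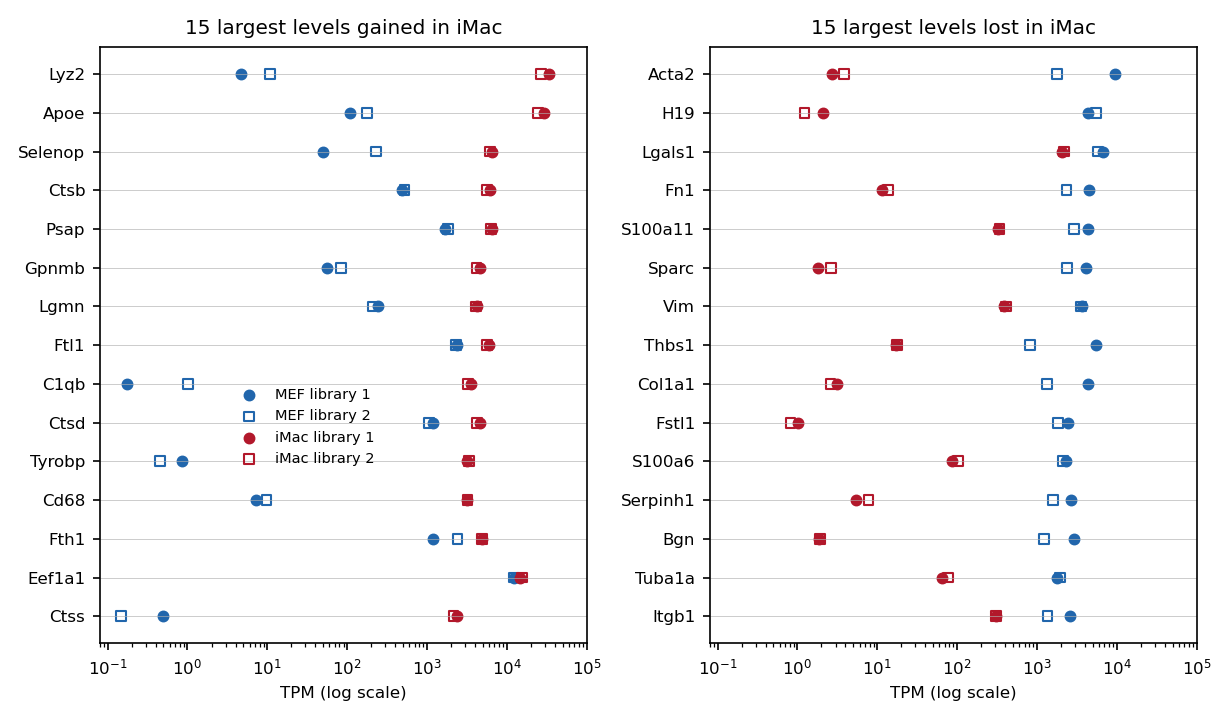
TPM on a log axis of the 15 genes with the largest gain (left) and the 15 with the largest loss (right) of mean level in iMac against MEF, with 1 point per library; blue is MEF, red is iMac, filled circles are library 1 and open squares library 2. The iMac libraries lie close together in every row, while the MEF libraries lie further apart for several genes, among them C1qb, Selenop, Ctss, Acta2, Thbs1 and Col1a1.

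More genes were switched off than on. With on set at 1 TPM or more in both libraries of a group and off at under 0.1 TPM in both, 313 genes were off in MEF and on in iMac, and 1497 were on in MEF and off in iMac. Neither set made up much of the RNA. The 313 genes held 0.967% and 0.972% of all TPM in iMac, and the 1497 genes 2.24% and 2.42% in MEF. Another 12098 genes were on in both groups.

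The steepest rises, by the fitted fold change of genes with at least 20 CPM in iMac, were of genes at or near 0 in MEF. Ms4a4a, which encodes a protein of the macrophage surface, was without counts in MEF and reached 172 and 178 CPM in iMac, at least 4406-fold higher (against 3 counts over the group). Itgam, the alpha chain of complement receptor 3, was at least 2094-fold higher, with 68.7% of its exonic bases shared with another gene. Cd86, a costimulatory protein, was at least 1613-fold higher. Il7r, better known as a receptor of lymphocytes, was at 67.6 and 57.4 CPM in iMac and at least 1578-fold higher, and Ms4a14 was at least 1506-fold higher. The others had 1 or 2 counts over both MEF libraries. Spi1 was at 368 and 307 CPM in iMac and 25572-fold higher (95% counting interval 4589 to 1010090.0). Slco2b1, an organic anion transporter, was 24745-fold higher (95% counting interval 4441 to 977431), and Arhgap30, a regulator of small GTPases, was 26479-fold higher (95% counting interval 4752 to 1045900.0). These intervals and bounds cover counting error only. Rac2 and Myo1f, the remaining pair of the 10, are described with their paralogs.

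The steepest falls were of genes with no counts in iMac, and most do not encode matrix proteins. Gpc3, a heparan sulfate proteoglycan of embryonic growth, was at 231 and 207 CPM in MEF and at least 4859.9-fold lower. Slc1a3, a glutamate transporter best known from glia, was at 94.7 and 271 CPM and at least 4108-fold lower. Olig1, a transcription factor of the oligodendrocyte lineage, was at 35.0 and 185 CPM and at least 2482-fold lower. Abat, which breaks down the transmitter GABA, was at 81.9 and 84.1 CPM and at least 1844-fold lower. The sulfotransferase Chst2 was at least 3161-fold lower, Adam23, a membrane protein of the nervous system, at least 2974-fold lower, Cachd1, a calcium channel regulator, at least 2192-fold lower, and the cadherin Cdh6 at least 2066-fold lower. Only elastin (Eln, at least 2044-fold lower) and hemicentin 1 (Hmcn1, at least 1592-fold lower) of these 10 encode proteins of the matrix itself. Slc1a3, Chst2 and Olig1 were higher in MEF library 2, and Eln in MEF library 1. Adam23 did not pass without iMac library 1 or without iMac library 2 (adjusted p 0.0522 to 0.0523, edgeR). Abat did not pass without iMac library 1 (adjusted p 0.05, edgeR). Cdh6 did not pass without MEF library 2 or without iMac library 1 or without iMac library 2 (adjusted p 0.0651 to 0.07, edgeR).

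Promoter windows of 300 bases around the annotated start of each gene (250 before, 50 after; RefSeq, GRCm38.p6) were searched on both strands for short motifs, to set the genes that moved beside letters that known factors can bind. GAGGAAGT, a core recognised by PU.1, stood in 4.81% of 4118 windows of genes called higher, in 2.07% of 5747 windows of genes called lower and in 3.12% of all 15606 windows of genes tested. The TEAD motif CATTCCA stood in 2.33% of windows of genes called higher, in 3.72% of those called lower and in 3.05% of all tested. The CArG box, bound by serum response factor, stood in 0.947%, 1.51% and 1.3%. CACGTG, an E-box that Myc can bind, stood in 10.7%, 8.14% and 9.27%, TTGCNNAA, which C/EBP factors can bind, in 9.86%, 7.93% and 8.62%, and the AP-1 motif TGANTCA in 5.76%, 6% and 5.7%. A window can hold several of these motifs, a gene can have several windows, and a match is a run of letters and not a measured site. Motif-bearing stretches are shown for 3 genes that rose and 2 that fell, 5′ to 3′ on the gene's strand, with the match in capitals. They are examples, and the same kinds of match also stood in genes that moved the other way. A PU.1 match begins 2 bases before the annotated start of Fstl1, which fell. TEAD matches stood in windows of Slc11a1, Evl and Arhgdib, which rose. In Ctss the match lies on the other strand and reads ACTTCCTC. The values of Ctss, Vav1, Inpp5d and Myl9 stand with their groups, and Cnn2, a calponin, fell from 863 and 409.6 to 11.5 and 9.92 CPM. Myl9 and Cnn2 did not pass without iMac library 1 or without iMac library 2 (adjusted p 0.0516 to 0.072, edgeR). The PU.1 match begins 2 bases before the annotated start in Ctss (chr3:95526734-95526805, + strand), 11 before it in Vav1 (chr17:57279039-57279119, + strand) and 20 before it in Inpp5d (chr1:87620242-87620331, + strand). The CArG box begins 161 bases before the start of Myl9 (chr2:156775253-156775362, + strand) and 56 before that of Cnn2 (chr10:79988494-79988603, + strand).
Ctss: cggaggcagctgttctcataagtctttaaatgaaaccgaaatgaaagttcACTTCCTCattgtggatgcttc
Vav1: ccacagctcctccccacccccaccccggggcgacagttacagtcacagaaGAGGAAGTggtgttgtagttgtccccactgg
Inpp5d: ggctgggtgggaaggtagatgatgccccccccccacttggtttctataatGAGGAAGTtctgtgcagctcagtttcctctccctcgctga
Myl9: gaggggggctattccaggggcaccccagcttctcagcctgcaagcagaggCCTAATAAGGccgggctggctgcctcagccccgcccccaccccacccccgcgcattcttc
Cnn2: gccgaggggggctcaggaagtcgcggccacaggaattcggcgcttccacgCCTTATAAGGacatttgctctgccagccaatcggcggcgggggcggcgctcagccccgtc

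In most protein families examined the blood-cell member took a larger share in iMac. In 28 pairs of a broadly expressed gene and a paralog listed as its blood-cell member, that paralog rose in 27, against 25.1% of all genes tested. The broadly expressed member fell in 19, against 32.4%. Some listed paralogs are not confined to blood cells: Tmsb4x and Lgals3 had a mean of 2566 and 149 TPM in MEF. Each pair was picked for its blood-cell member, and with earlier results of these data known. A rise of that member in macrophages was thus likely in advance, so the counts are descriptions and not a test. In 26 of the 27 and in 11 of the 19 the call held in each fit that left out 1 MEF or iMac library. The blood-cell member held more than 50% of the pair's TPM in both iMac libraries in 21 pairs and in both MEF libraries in 3.

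The pairs that handle actin were mostly exchanged. Lcp1, the blood-cell plastin that bundles actin, made up 0.124% and 0.113% of the pair in MEF and 90.3% and 91.2% in iMac, while Pls3, the broad plastin, fell from 567 and 334 to 72.4 and 66.0 CPM. Hcls1, the blood-cell relative of cortactin, went from 0.0316% and 0.0783% to 96.9% and 97.9% of its pair as Cttn fell from 568.8 and 436 to 11.05 and 8.32 CPM. Nckap1l, a subunit of the WAVE complex that starts branched actin, replaced Nckap1: the broad gene was at 260.0 and 255 CPM in MEF and 1.05 and 1.72 CPM in iMac, and the blood-cell gene at 0.732 and 0.386 CPM in MEF and 748 and 737 CPM in iMac. Fermt3, the kindlin that activates integrins in blood cells, rose from 0.894 and 0.953 to 448 and 436 CPM, and Fermt2 fell from 339 and 199 to 0.806 and 1.03 CPM. Was, the blood-cell activator of the Arp2/3 complex, rose from 0.0813 and 0.0258 to 117 and 123 CPM, and Coro1a, a coronin, from 0.515 and 0.979 to 471 and 485 CPM. Its broad relative Coro1c rose as well, from 228 and 219 to 372 and 361 CPM. Myo1f, a class I myosin with 2 counts over MEF, was 18979.5-fold higher (95% counting interval 5254 to 156727). The exception was Cyfip2, the WAVE subunit used in blood cells and neurons, which fell from 38.0 and 51.9 to 16.1 and 17.2 CPM while its relative Cyfip1 was at 258 and 221 CPM in MEF and 347 and 349 CPM in iMac. The thymosin Tmsb4x and the Arp2/3 subunit Arpc1b already held most of their pairs in MEF, at 63.5% and 63.4% and 70.0% and 66.2%, and Evl, an actin elongation factor, 70.3% and 74.2%. Nckap1 did not pass without iMac library 1 (adjusted p 0.0501, edgeR). Fermt2, Cyfip1 and Tmsb4x did not pass without iMac library 1 or without iMac library 2 (adjusted p 0.057 to 0.0827, edgeR).

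Genes of Rac signalling used in blood cells rose, while Rac1 was not called. Rac2, a small GTPase of blood cells, had 2 counts over MEF, was at 492 and 444 CPM in iMac and 17726-fold higher (95% counting interval 4907 to 146376), and made up 68.8% and 66.4% of the pair in iMac. Rac1 was at 372 and 359 CPM in MEF and 324 and 325 CPM in iMac and was not called, with a 95% interval of -0.39 to 0.05 for the log2 fold change, and 51.4% of its exonic bases are shared with another gene. The exchange factors Dock2 and Vav1 rose from 0.298 and 0.0258 to 277 and 271 CPM and from 0.0271 and 0.129 to 229.7 and 226 CPM, and Elmo1, which binds Dock proteins, from 10.4 and 17.7 to 123 and 132 CPM. Arhgdib, a blood-cell inhibitor of small GTPases, rose from 83.0 and 54.8 to 233 and 240.5 CPM but made up only 22.9% and 23.6% of its pair in iMac.

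Among signalling enzymes and membrane proteins the blood-cell members rose, while their broad partners did not all fall. Ptpn6, the phosphatase SHP-1, went from 0.541% and 1.46% to 82.5% and 82.9% of its pair as Ptpn11 fell from 359 and 270.3 to 148 and 144 CPM. The kinase Src fell from 114 and 117 to 20.8 and 14.6 CPM. Plcg2, a phospholipase C, rose from 7.70 and 7.32 to 199 and 199.5 CPM, and Pik3cd, the delta chain of PI3-kinase, from 5.01 and 7.21 to 253 and 250.5 CPM. Inpp5d, the phosphatase SHIP1, rose from 1.25 and 0.902 to 328 and 331 CPM, and the broad relative Inppl1 rose too, from 212 and 179 to 449 and 413 CPM. Integrin beta 2 (Itgb2) rose from 0.352 and 1.31 to 164 and 154 CPM, yet Itgb1 still held the larger share of that pair in iMac, where Itgb2 was at 33.9% and 33.4%. Lysosomal and metabolic members moved as well. Laptm5, a lysosomal membrane protein, went from 0.515 and 0.438 to 1730.4 and 1704 CPM, and Slc11a1, a metal transporter of phagosomes, from 0.434 and 0.283 to 136 and 129.6 CPM. The broad partners of Pik3cd and Slc11a1, Pik3ca and Slc11a2, were not called (log2 fold change 0.10 ± 0.13 and 0.21 ± 0.18). Hk3, a hexokinase, went from 0 and 0.0773 CPM in MEF, or 3 counts, to 127 and 121 CPM, 3134-fold higher (95% counting interval 1072 to 15199.7), and the broad hexokinase Hk1 fell from 182 and 169 to 81.9 and 77.2 CPM. Lgals3 rose from 62.6 and 85.6 to 1259 and 996 CPM against the fall of Lgals1, and Psmb8, a subunit of the immunoproteasome, from 2.28 and 3.25 to 46.5 and 43.5 CPM. Psmb8 made up only 28.9% and 28.4% of its pair in iMac.

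**Figure D3:**
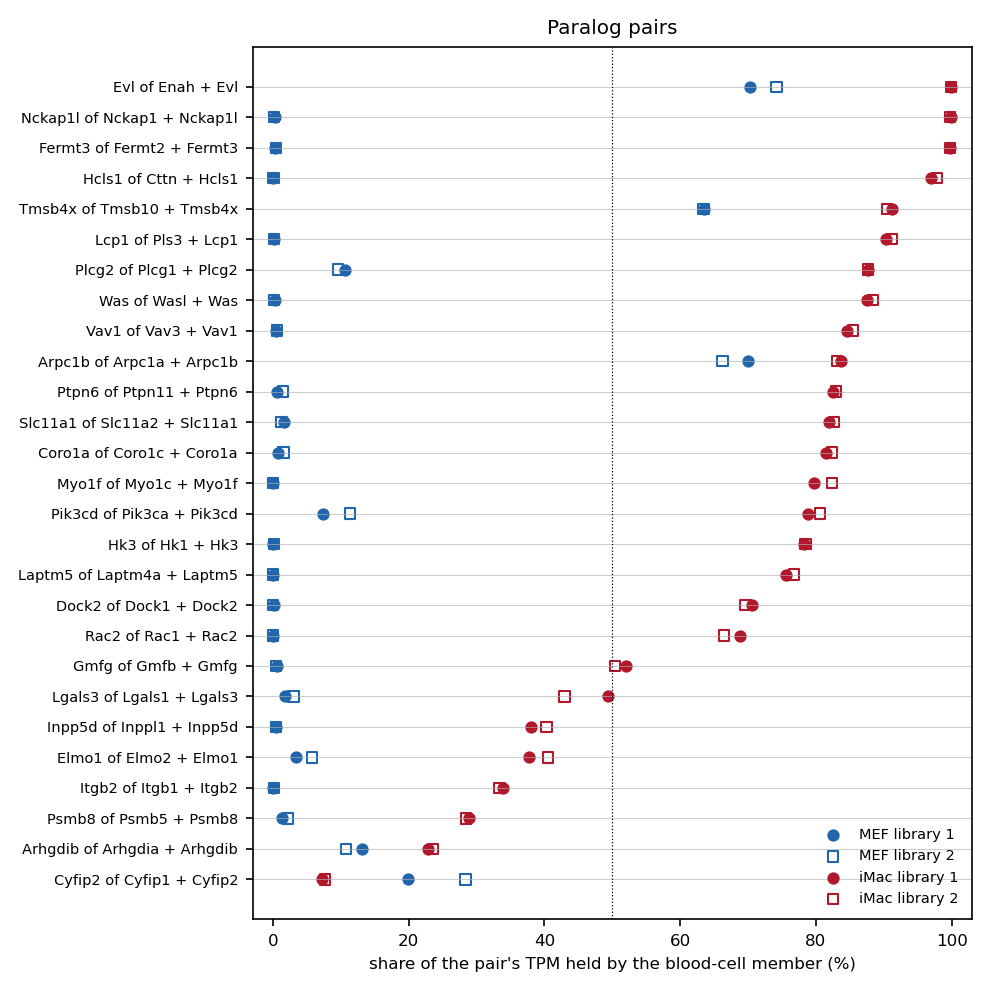
Share of the pair's TPM held by the blood-cell member, in percent, in each MEF library (blue) and iMac library (red), with library 1 as filled circles and library 2 as open squares; the dotted line marks 50%. Of the 28 pairs 27 are drawn, and in 26 of them both red points lie to the right of both blue points, and Cyfip2 at the bottom lies the other way.

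Genes of the contractile apparatus were lower throughout. Of 21 tested genes of stress fibres and contractile actin all 21 fell, with a median log2 fold change of -5.91 beside -0.06 over all genes tested; 5 without iMac library 1 and 4 without iMac library 2 were called lower. The light chain Myl9 was at 818 and 200.1 CPM in MEF and 0.299 and 0.302 CPM in iMac, calponin 3 (Cnn3) at 566 and 510.4 CPM in MEF and 0.567 and 0.362 CPM in iMac, and nonmuscle myosin Myh10 at 725 and 383 CPM in MEF and 2.60 and 2.89 CPM in iMac. Lmod1, a leiomodin of smooth muscle, was at 114 and 16.3 CPM in MEF and, with 1 count over iMac, 4250.4-fold lower (95% counting interval 763 to 167917). Myh9, the main nonmuscle myosin, stayed abundant at 643 and 608 CPM in iMac after 2692 and 1514 CPM in MEF, and filamin A (Flna) at 1049 and 1085 after 4709 and 2615 CPM. All 21 genes were higher in MEF library 1 than in MEF library 2, by a median of 1.19 on the log2 scale, and the part of that difference in the result was not tested. Myl9, Cnn3, Myh10, Lmod1, Myh9 and Flna did not pass without iMac library 1 or without iMac library 2 (adjusted p 0.0535 to 0.072, edgeR).

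Most tested genes of adhesion to the matrix were lower. Of 18 focal adhesion genes 11 fell and 1 rose (5 without iMac library 1 and 5 without iMac library 2 were lower). These falls were 61.1% of the list, against 32.4% of all genes tested. Vinculin (Vcl) fell from 868 and 435 to 41.4 and 38.2 CPM, focal adhesion kinase (Ptk2) from 132 and 118 to 24.5 and 22.5 CPM, and the tensin Tns2 from 89.9 and 90.8 to 0.538 and 0.633 CPM. Parva, which links integrins to actin, fell from 511 and 338 to 0.209 and 0.513 CPM. Talin 1 (Tln1), which switches integrins on, was at 1136 and 738 CPM in MEF and 944 and 917 CPM in iMac, with overlapping groups and a log2 fold change of -0.01 ± 0.22, and without MEF library 1 it was called higher (adjusted p 0.0402, edgeR). Paxillin (Pxn) was the member that rose, from 126 and 156 to 240.3 and 231 CPM. Parva and Pxn did not pass without iMac library 1 or without iMac library 2 (adjusted p 0.0532 to 0.0669, edgeR). Of 8 genes of caveolae, the small pits of the fibroblast surface, 6 fell (2 without iMac library 1 and 3 without iMac library 2). Falls were 75% of the caveola list, against 32.4% of all genes tested. The coat protein Cav1 went from 787 and 443 to 13.9 and 10.6 CPM, and Cavin1 from 937 and 857 to 6.42 and 4.88 CPM, while Cav2 was at 60.2 and 30.2 CPM in MEF and 36.8 and 31.2 CPM in iMac and was not called. Cavin1 did not pass without iMac library 1 or without iMac library 2 (adjusted p 0.0637 to 0.0685, edgeR). Of 18 genes of cell-cell junctions 16 fell and none passed the test as a rise (9 without iMac library 1 and 9 without iMac library 2 were lower). Cadherin 11 (Cdh11), the fibroblast cadherin, fell from 889 and 542 to 0.717 and 0.543 CPM, N-cadherin (Cdh2) from 295 and 359.5 to 0.149 and 0.271 CPM, and the gap junction protein Gja1 from 320.1 and 271 to 22.8 and 22.7 CPM. Beta-catenin (Ctnnb1) fell less, from 738 and 739 to 407 and 403 CPM. Cdh2 did not pass without iMac library 1 or without iMac library 2 (adjusted p 0.0821 to 0.0857, edgeR). The summed level of the junction genes was 1971 and 1969 TPM in MEF and 432 and 438 TPM in iMac, so here the MEF libraries were alike.

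Transcripts of the YAP pathway, in which the coactivators YAP and TAZ sense tension and act on DNA through TEAD factors, were lower from factor to target. Of 19 genes 18 fell, with a median log2 fold change of -8.47; 4 without iMac library 1 and 3 without iMac library 2 were called lower. With all libraries 32.4% of all genes tested were lower, and fewer were called lower without an iMac library. The coactivators went from 242 and 188 to 0.149 and 0.151 CPM (Yap1) and from 223 and 194 to 0.299 and 0.151 CPM (Wwtr1, TAZ). All 4 TEAD genes fell: Tead1 from 450.2 and 339 to 0.358 and 0.332 CPM, Tead2 from 97.9 and 109.9 to 0.597 and 1.03 CPM, Tead3 from 79.8 and 64.4 to 0.239 and 0.0302 CPM, and Tead4, at 16.6 and 24.3 CPM in MEF, was at least 457-fold lower. The targets Ccn1 and Ccn2, secreted matrix proteins, fell from 791 and 613 to 1.05 and 1.15 CPM and from 1088 and 262 to 1.25 and 0.965 CPM. Negative regulators fell less, with the kinase Lats2 at 64.8 and 54.0 CPM in MEF and 19.7 and 18.2 CPM in iMac and the scaffold Amotl1 at 233 and 208 CPM in MEF and 39.7 and 40.4 CPM in iMac. Wtip, a scaffold that holds back LATS kinases, was at 33.0 and 21.8 CPM in MEF and 30.5 and 22.9 CPM in iMac and was not called. The interval of its log2 fold change ran from -0.82 to 0.75. Yap1, Wwtr1, Tead1, Tead2, Ccn1 and Ccn2 did not pass without iMac library 1 or without iMac library 2 (adjusted p 0.051 to 0.0877, edgeR). Tead3 did not pass without iMac library 2 (adjusted p 0.0565, edgeR). Tead4 did not pass without MEF library 1 or without MEF library 2 or without iMac library 1 or without iMac library 2 (adjusted p 0.0508 to 0.0631, edgeR).

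Transcripts of hedgehog signalling, which in vertebrates runs through the primary cilium, were lower at most steps. Of 15 genes 13 fell, with a median log2 fold change of -7.15 (7 without iMac library 1 and 8 without iMac library 2 were lower). Among surface proteins that bind the ligand, Boc fell from 105 and 131 to 0.388 and 0.332 CPM, Cdon from 141 and 68.7 to 0.657 and 0.814 CPM and Gas1 from 77.0 and 66.5 to 0.0299 and 0.211 CPM, and the decoy receptor Hhip, at 18.2 and 46.5 CPM in MEF, was at least 727-fold lower. The receptor Ptch1, itself a target of the pathway, fell from 52.7 and 129.6 to 36.3 and 35.7 CPM, and the signal carrier Smo from 154 and 135 to 71.5 and 79.9 CPM. Of the transcription factors, Gli1 fell from 10.2 and 27.6 to 0.0597 and 0.0905 CPM, Gli2, at 43.5 and 51.9 CPM in MEF, was at least 1062-fold lower, and Gli3, at 107 and 100.1 CPM in MEF with 3 counts over iMac, was 2303-fold lower (95% counting interval 788 to 11172). The inhibitor Sufu was at 56.0 and 50.8 CPM in MEF and 46.1 and 48.2 CPM in iMac and was not called. Ptch1, Gli1 and Hhip were all higher in MEF library 2. Cdon, Ptch1 and Gli3 did not pass without iMac library 1 or without iMac library 2 (adjusted p 0.0609 to 0.168, edgeR). Gas1 did not pass without MEF library 1 or without MEF library 2 or without iMac library 1 or without iMac library 2 (adjusted p 0.0651 to 0.133, edgeR). Smo did not pass without iMac library 1 (adjusted p 0.0521, edgeR).

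Genes of the cilium itself fell less. Of 26 genes of the primary cilium 14 fell and 3 rose, and the median log2 fold change was -0.74 (5 without iMac library 1 and 6 without iMac library 2 were lower). Falls were 53.8% and rises 11.5% of the list, beside 32.4% and 25.1% of all genes tested. The largest fall was of Tctn2, a protein of the gate at the cilium base, from 24.02 and 25.9 to 0.508 and 0.482 CPM. Arl13b, a GTPase of the ciliary membrane, fell from 29.2 and 28.2 to 13.9 and 13.3 CPM, and Ift81 and Ift122, parts of the transport trains, from 23.1 and 23.5 to 7.23 and 6.995 CPM and from 40.2 and 40.0 to 18.9 and 15.4 CPM. Kif3a, a motor that also works outside cilia, rose from 42.5 and 44.0 to 85.9 and 77.7 CPM, and Ift52 and Ift140 rose from 35.2 and 30.7 to 46.1 and 50.4 CPM and from 33.3 and 36.3 to 49.1 and 51.0 CPM. Ift52 and Ift140 did not pass without iMac library 1 or without iMac library 2 (adjusted p 0.0645 to 0.102, edgeR).

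**Figure D4:**
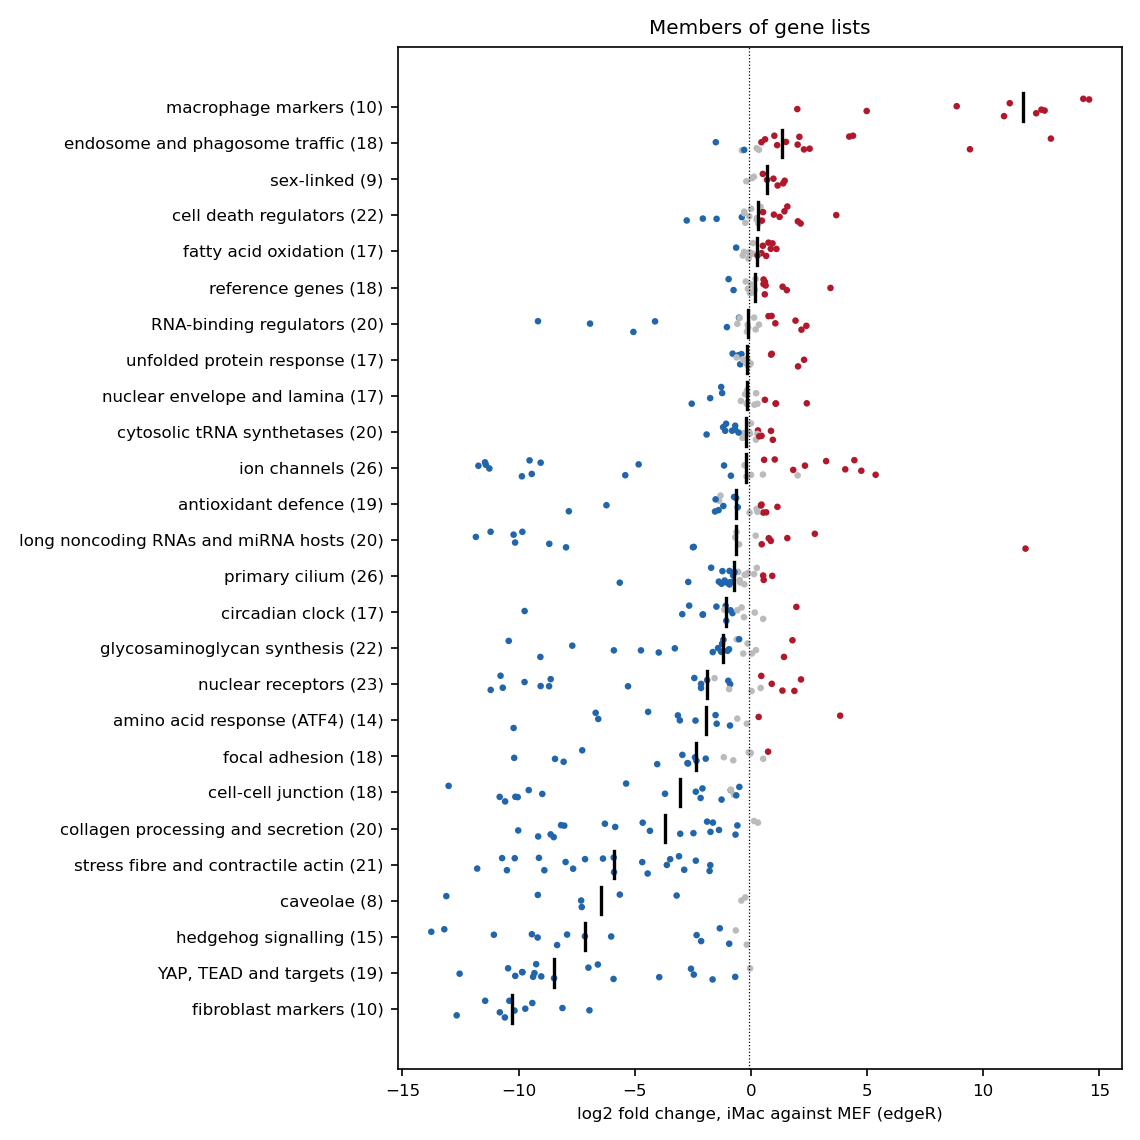
Fitted log2 fold change of iMac against MEF for each tested member of the gene lists, 1 point per gene, with the number of tested members beside each name; red points were called higher, blue points lower, grey points were not called, black bars are list medians and the dotted line is the median of all genes tested. Of the lists drawn, which leave out those of other cell types, the YAP, hedgehog, caveola and stress fibre lists have the lowest medians after the fibroblast markers, and the fitted value of a gene with no counts in 1 group depends on the prior count.

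Most genes that process and secrete collagen were lower. Of 20 genes of collagen processing and secretion 18 fell (9 without iMac library 1 and 10 without iMac library 2 were lower). That was 90% of the list, against 32.4% of all genes tested. Fkbp10, a collagen prolyl isomerase, fell from 421 and 251 to 0.687 and 0.482 CPM, the prolyl hydroxylase P4ha2 from 137 and 72.0 to 2.06 and 1.57 CPM, and the retrieval receptor Kdelr3 from 113 and 49.4 to 0.0896 and 0.0603 CPM. The lysyl hydroxylase Plod1 was at 152 and 114 CPM in MEF and 145 and 146 CPM in iMac and the sugar transferase Colgalt1 at 204 and 150.4 CPM in MEF and 218 and 219 CPM in iMac, and neither was called, although both were called higher without MEF library 1 (adjusted p 0.0259 and 0.0162, edgeR). P4hb, a chaperone with duties beyond collagen, fell from 1355 and 1036 to 805 and 790.1 CPM. Fkbp10 and P4hb did not pass without iMac library 1 or without iMac library 2 (adjusted p 0.053 to 0.152, edgeR). Of 22 genes that build glycosaminoglycans, the sugar chains of proteoglycans, 15 fell and 2 rose (12 without iMac library 1 and 10 without iMac library 2 were lower). Falls were 68.2% and rises 9.09% of this list, beside 32.4% and 25.1% of all genes tested. Hs6st2, a heparan sulfotransferase, fell from 118 and 56.2 to 0.0597 and 0.0603 CPM, Chpf, a chondroitin polymerase partner, from 198 and 139 to 3.28 and 2.35 CPM, and Ext1, which extends heparan chains, from 196 and 139 to 18.01 and 16.6 CPM. The hyaluronan synthase Has2, with 1 count in each iMac library after 26.7 and 9.07 CPM in MEF, was 589-fold lower (95% counting interval 163 to 4868). The chain-starting enzyme Xylt2 and the epimerase Dse went the other way, from 37.1 and 31.9 to 134 and 105 CPM and from 83.1 and 67.7 to 201 and 203 CPM. Hs6st2 and Has2 did not pass without iMac library 1 or without iMac library 2 (adjusted p 0.062 to 0.0887, edgeR).

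Genes of the unfolded protein response, which balances the load of the endoplasmic reticulum, split evenly. Of 17 genes 4 rose and 4 fell, shares of 23.5% each beside 25.1% and 32.4% of all genes tested. The chaperone Hspa5 (BiP) was at 929 and 822 CPM in MEF and 835 and 845 CPM in iMac, with overlapping groups and a log2 fold change of -0.06 ± 0.11. The members that rose include Xbp1, a transcription factor of the response, from 104 and 84.2 to 189.8 and 160.3 CPM, Edem1, which sends misfolded proteins to degradation, from 102.9 and 70.5 to 427 and 419.8 CPM, and the chaperone partner Sdf2l1 from 13.9 and 12.6 to 55.1 and 53.0 CPM. None of the 4 falls was called without iMac library 1 or without iMac library 2.

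Targets of ATF4, the factor that answers amino acid shortage, were mostly lower. Atf4 itself was at 221 and 193 CPM in MEF and 183 and 184 CPM in iMac and was not called, with a log2 fold change of -0.17 ± 0.10, but was called lower without MEF library 2 (adjusted p 0.0432, edgeR). Of 14 genes 10 fell and 2 rose (5 without iMac library 1 and 4 without iMac library 2 were lower). Falls were 71.4% and rises 14.3% of the list, beside 32.4% and 25.1% of all genes tested. The cystine transporter Slc7a11 fell from 15.99 and 40.2 to 0.269 and 0.271 CPM, asparagine synthetase (Asns) from 115 and 69.6 to 31.9 and 34.4 CPM, the stress proteins Ddit4 and Sesn2 from 64.4 and 68.3 to 6.69 and 8.32 CPM and from 124 and 117 to 39.6 and 44.2 CPM, and the serine enzyme Psat1 from 187 and 202 to 105 and 102.9 CPM. Atf3, which is also induced by inflammatory signals, rose from 5.26 and 24.4 to 224 and 202 CPM, and Cebpg rose from 39.8 and 38.2 to 49.96 and 48.4 CPM. Asns did not pass without iMac library 1 or without iMac library 2 (adjusted p 0.0663 to 0.074, edgeR). Cebpg did not pass without MEF library 1 or without MEF library 2 or without iMac library 1 or without iMac library 2 (adjusted p 0.0564 to 0.199, edgeR). Among 20 cytosolic tRNA synthetases 8 fell (40%) and 5 rose (25%), near the 32.4% and 25.1% of all genes tested, and in each fit that left out 1 iMac library 3 were lower and 2 higher. Those for alanine, cysteine and tyrosine fell (Aars from 393 and 315 to 95.5 and 93.1 CPM, Cars from 119 and 93.4 to 47.3 and 45.6 CPM, Yars from 105 and 89.6 to 45.7 and 47.1 CPM), and those for glutamine and one chain of the phenylalanine enzyme rose (Qars from 149 and 129.7 to 261 and 275 CPM, Farsb from 53.3 and 47.6 to 90.3 and 93.3 CPM). Of all 20 genes 19 were higher in MEF library 1 than in MEF library 2.

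Among 19 antioxidant genes 9 fell (47.4%) and 5 rose (26.3%), the latter near the 25.1% of all genes tested. Falls numbered 7 without iMac library 1 and 6 without iMac library 2, and rises 1 in each of these fits. Nqo1, a quinone reductase driven by the factor NRF2, fell from 33.9 and 56.1 to 0.508 and 0.694 CPM, the glutathione transferase Gsta4 from 54.8 and 91.1 to 0.0896 and 0.543 CPM, and the thioredoxin reductase Txnrd1 from 281 and 334 to 137 and 133 CPM. Nfe2l2, which encodes NRF2, rose from 116 and 151 to 216 and 206 CPM, and Mgst1, a membrane glutathione transferase, from 32.6 and 45.8 to 87.9 and 84.8 CPM. Heme oxygenase (Hmox1) was at 238 and 299.8 CPM in MEF and 278 and 238 CPM in iMac and was not called. Nqo1 did not pass without iMac library 1 or without iMac library 2 (adjusted p 0.0614 to 0.0655, edgeR). Nfe2l2 did not pass without MEF library 1 or without iMac library 1 or without iMac library 2 (adjusted p 0.064 to 0.112, edgeR). Genes of mitochondrial fatty acid oxidation moved upward by small amounts. Of 17 tested 8 rose and 1 fell, against 25.1% and 32.4% of all genes, with a median log2 fold change of 0.28; 4 without iMac library 1 and 4 without iMac library 2 were called higher. The dehydrogenase Acadm rose from 51.9 and 62.0 to 128 and 117 CPM, the thiolase Acaa2 from 39.1 and 37.6 to 69.8 and 76.2 CPM, Ech1 from 64.5 and 57.4 to 106 and 114 CPM and the trifunctional subunit Hadha from 190.4 and 169 to 305 and 302 CPM.

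Of 17 genes of the nuclear envelope 4 rose and 4 fell, 23.5% each, near or under the shares of all genes tested (25.1% and 32.4%). Lamin A/C (Lmna), which stiffens the nucleus, fell from 742 and 636 to 301 and 283 CPM, and so did proteins that tie the nucleus to the cytoskeleton, Sun1 (from 90.4 and 91.0 to 41.7 and 33.0 CPM), Syne1 (from 96.4 and 60.8 to 22.2 and 24.4 CPM) and Syne2 (from 33.8 and 55.0 to 7.76 and 7.42 CPM). Lamin B2 (Lmnb2) rose from 24.1 and 32.6 to 58.3 and 60.1 CPM, and Tor1aip1, a lamina-associated protein, from 66.0 and 71.7 to 154 and 137 CPM. Lamin B1 (Lmnb1) was at 52.8 and 129 CPM in MEF and 72.1 and 81.1 CPM in iMac and was not called. Its direction rested on 1 MEF library: it was called lower without MEF library 1 and higher without MEF library 2 (adjusted p 0.0104 and 0.046, edgeR). Of 23 nuclear receptors 14 fell (60.9%) and 5 rose (21.7%, under the 25.1% of all genes tested). Falls numbered 7 without iMac library 1 and 6 without iMac library 2, and rises 2 in each of these fits. Transcripts of the mesenchymal receptors known as COUP-TFs were nearly lost. Nr2f1, at 52.3 and 65.2 CPM in MEF with 2 counts over iMac, was 1962-fold lower (95% counting interval 543 to 16209), and Nr2f2 fell from 68.0 and 92.4 to 0.119 and 0.0603 CPM. Receptors that handle lipids in macrophages rose, with Pparg from 4.20 and 12.5 to 30.6 and 30.6 CPM and Nr1h3 (LXR alpha) from 1.87 and 5.26 to 17.2 and 14.6 CPM, as did their partners Rxra from 107 and 101 to 196 and 190.2 CPM and Rxrb from 38.8 and 35.1 to 95.3 and 93.9 CPM. Nr2f1 did not pass without MEF library 2 or without iMac library 1 or without iMac library 2 (adjusted p 0.0537 to 0.103, edgeR). Nr2f2 did not pass without iMac library 2 (adjusted p 0.0525, edgeR). Pparg and Nr1h3 did not pass without iMac library 1 or without iMac library 2 (adjusted p 0.0683 to 0.0992, edgeR).

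Clock genes were mostly lower. Of 17 tested 10 fell and 1 rose (6 without iMac library 1 and 5 without iMac library 2 were lower). Falls were 58.8% and rises 5.88% of the clock list, beside 32.4% and 25.1% of all genes tested. The repressor Nr1d1 fell from 24.9 and 25.4 to 5.52 and 6.48 CPM, Bhlhe40 from 66.1 and 70.0 to 9.59 and 7.96 CPM, and Clock itself from 62.9 and 63.1 to 35.4 and 33.0 CPM, while Bhlhe41 rose from 6.88 and 9.82 to 33.9 and 30.9 CPM. The time of day at which the cells were taken is not given, so phase and level cannot be told apart. Of 20 RNA-binding regulators 6 rose and 6 fell, 30% each, near the shares of all genes tested (25.1% and 32.4%), and in each fit that left out 1 iMac library 3 were called lower. The splicing factors Rbfox2 and Rbpms, the latter known from smooth muscle, fell from 325 and 234 to 15.6 and 16.3 CPM and from 52.2 and 47.0 to 0.657 and 0.151 CPM. Ptbp3, the blood-cell member of its family, rose from 83.5 and 72.2 to 409 and 406 CPM, and Mbnl1 rose (from 186 and 139 to 333 and 340.1 CPM) where Mbnl2 fell (from 277 and 229 to 127 and 120.5 CPM). Zfp36 and Zfp36l1, which mark messages of inflammation for decay, rose from 59.6 and 116 to 338 and 325 CPM and from 132 and 138 to 644 and 577 CPM, with 55.9% of the exonic bases of the latter shared with another gene.

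Of 26 tested ion channels 12 fell (46.2%) and 9 rose (34.6%), beside 32.4% and 25.1% of all genes tested (6 without iMac library 1 and 7 without iMac library 2 were lower, and 5 without iMac library 1 and 6 without iMac library 2 higher). The stretch-gated channel Piezo2, with 1 count over iMac after 99.7 and 25.7 CPM in MEF, was 4118-fold lower (95% counting interval 739 to 162701), and its relative Piezo1 fell from 539 and 422 to 217 and 215 CPM. The calcium channel Cacna1c fell from 95.7 and 42.5 to 0.0597 and 0.121 CPM, and the chloride channel Ano1, with 2 counts over iMac after 24.6 and 21.6 CPM, was 769-fold lower (95% counting interval 213 to 6359). The potassium channels Kcnk6 and Kcnj2 rose from 1.73 and 1.75 to 49.6 and 44.6 CPM and from 3.79 and 2.50 to 55.2 and 49.8 CPM, and the subunit Kcnab2 from 4.55 and 4.48 to 102.5 and 95.4 CPM. Piezo2 did not pass without iMac library 1 (adjusted p 0.0517, edgeR). Cacna1c did not pass without iMac library 1 or without iMac library 2 (adjusted p 0.0709 to 0.0743, edgeR).

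Genes of endosome and phagosome traffic rose. Of 18 tested 13 were higher and 2 lower, with a median log2 fold change of 1.32 (11 without iMac library 1 and 11 without iMac library 2 were higher). Rises were 72.2% and falls 11.1% of the list, beside 25.1% and 32.4% of all genes tested. Wdfy4, which serves antigen handling, was at 0.0542 and 0 CPM in MEF, 2 counts, and at 222 and 239 CPM in iMac, 8728-fold higher (95% counting interval 2416 to 72073). The late endosome GTPase Rab7b rose from 10.8 and 16.5 to 256 and 257 CPM, Arl11 from 0 and 0.155 to 58.9 and 54.8 CPM, the sorting nexins Snx20 and Snx5 from 1.76 and 1.85 to 38.8 and 37.4 CPM and from 192 and 192 to 808 and 821 CPM, and Plekho2 from 104 and 76.4 to 458 and 419 CPM. The SNARE proteins Vamp3 and Stx11 fell, from 123 and 119 to 101 and 96.8 CPM and from 7.10 and 6.49 to 2.93 and 1.84 CPM. Vamp3 did not pass without iMac library 1 or without iMac library 2 (adjusted p 0.156 to 0.23, edgeR). Stx11 did not pass without MEF library 1 or without iMac library 2 (adjusted p 0.0506 to 0.073, edgeR). Cell death genes changed their make-up: 9 of 22 rose and 4 fell (7 without iMac library 1 and 7 without iMac library 2 were higher). Rises made up 40.9% and falls 18.2% of the cell death list, beside 25.1% and 32.4% of all genes tested. Of the survival proteins, Bcl2 and Bcl2l1 fell from 15.5 and 18.1 to 2.48 and 2.47 CPM and from 133 and 144 to 33.1 and 32.9 CPM, and Mcl1 and Birc3 rose from 222 and 239 to 488 and 426 CPM and from 16.5 and 16.4 to 80.7 and 64.6 CPM. Gsdmd, the pore protein of pyroptosis, rose from 10.4 and 10.5 to 140.1 and 125 CPM, Casp8 from 37.2 and 30.4 to 100.5 and 99.9 CPM, and the killer protein Bcl2l11 from 28.3 and 27.5 to 109.9 and 117 CPM. Mlkl, which executes necroptosis, fell from 12.1 and 10.7 to 4.599 and 3.62 CPM.

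Of 1370 tested noncoding genes 19.2% were higher and 24.6% lower, under the shares of all genes tested (25.1% and 32.4%). In a list of 20 long noncoding RNAs and miRNA hosts 6 rose (30%) and 9 fell (45%). Without iMac library 1 the list had 4 rises and 4 falls, and without iMac library 2 it had 3 and 6. The imprinted cluster on chromosome 12 was nearly lost: Meg3 fell from 568 and 428 to 0.567 and 0.513 CPM, Rian from 477 and 279.9 to 0.538 and 0.0905 CPM, and Mirg, at 14.7 and 10.5 CPM in MEF, was at least 279-fold lower. Dnm3os, the host of miR-199a and miR-214, fell from 109.6 and 65.7 to 0.119 and 0.302 CPM. Mir142hg, the host of the blood-cell miR-142, was not detected in MEF, reached 13.1 and 11.8 CPM in iMac and was at least 314-fold higher. Mir17hg, the host of the miR-17 to miR-92 cluster and a known target of Myc, rose from 1.76 and 4.59 to 19.5 and 23.3 CPM. Dnm3os did not pass without iMac library 1 or without iMac library 2 (adjusted p 0.0674 to 0.0743, edgeR). Mature miRNAs were not measured by these libraries. The products encoded within these hosts and H19 are shown to name what the host transcripts carry (RefSeq, GRCm38.p6), with the seed, bases 2 to 8, in capitals. The hosts Mir142hg and Mir17hg rose and H19 and Dnm3os fell. Within the miR-17 host, miR-17-5p and miR-20a-5p share the seed AAAGUGC, and miR-19a-3p and miR-19b-3p share GUGCAAA, whereas the products of the other hosts shown have seeds of their own.
mmu-miR-142a-5p: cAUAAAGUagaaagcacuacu
mmu-miR-142a-3p: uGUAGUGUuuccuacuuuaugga
mmu-miR-17-5p: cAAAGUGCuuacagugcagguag
mmu-miR-20a-5p: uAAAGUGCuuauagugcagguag
mmu-miR-19a-3p: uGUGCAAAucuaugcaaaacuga
mmu-miR-19b-3p: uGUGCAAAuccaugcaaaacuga
mmu-miR-675-5p: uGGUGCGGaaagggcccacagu
mmu-miR-199a-3p: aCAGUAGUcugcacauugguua
mmu-miR-214-3p: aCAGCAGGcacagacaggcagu

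The MEF libraries held transcripts of other embryonic tissues, most of which were lower in iMac. All 9 tested neural and glial genes fell (5 without iMac library 1 and 6 without iMac library 2 were lower), with a summed level of 269 and 319 TPM in MEF and 0.887 and 1.17 TPM in iMac. Over all genes tested 32.4% were lower. Map2, a microtubule protein of neurons, fell from 99.6 and 139 to 0.538 and 0.935 CPM, and Gap43, of growing axons, with 1 count over iMac after 40.2 and 59.7 CPM in MEF, was 3345-fold lower (95% counting interval 600.1 to 132171). Of 6 tested genes of cartilage and bone 4 fell, among them Sox9, at 21.7 and 69.6 CPM in MEF and at least 1028-fold lower, and of 9 muscle genes 6 fell, among them desmin (Des) from 89.8 and 14.5 to 0.269 and 0.724 CPM. In each fit that left out 1 iMac library 2 genes of the cartilage and bone list and 2 of the muscle list were called lower. With all libraries, falls were 66.7% of the cartilage and bone list and 66.7% of the muscle list, beside 32.4% of all genes tested. Sox2, a factor of neural and pluripotent stem cells, was at 31.6 and 58.8 CPM in MEF and, with 2 counts over iMac, 1518-fold lower (95% counting interval 419.8 to 12538). Of 3 tested pluripotency genes 1 was called lower, Sox2, and 1 higher. These were 33.3% each, beside 32.4% and 25.1% of all genes tested, and the higher one did not pass without iMac library 1 or without iMac library 2. The pluripotency list summed to 2.08 and 1.63 TPM in iMac. Pou5f1, Dppa2, Lin28a and Tdgf1 had no counts in any MEF or iMac library. Des and Sox2 did not pass without iMac library 1 or without iMac library 2 (adjusted p 0.0607 to 0.0775, edgeR).

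The lists of T and NK cells, B cells, mast cells and dendritic cells each summed to at most 9.20 TPM in iMac, while some genes of other blood cells were high. Of 8 tested genes of blood progenitors and granules 4 rose and 4 fell, 50% each, beside 25.1% and 32.4% of all genes tested. The list summed to 372 and 335 TPM in iMac. The transcription factors Tal1, Lmo2 and Runx1 rose, Tal1 from no counts in MEF to 39.3 and 38.3 CPM (at least 979.5-fold higher), Lmo2 from 0.488 and 0.902 to 220.3 and 189 CPM and Runx1 from 42.1 and 24.9 to 134 and 124 CPM. The stem cell markers Cd34 and Kit fell, Cd34 from 45.7 and 168 CPM in MEF to 2 counts over iMac, 3607-fold lower (95% counting interval 998 to 29788), and Kit from 2.41 and 9.40 CPM to no counts, at least 133-fold lower. Flt3 and Gfi1b had no counts in MEF or iMac. Pf4, a chemokine named for platelets, was at 287 and 265 CPM in iMac with 3 counts over MEF, 6964-fold higher (95% counting interval 2383 to 33773), and the erythroid and megakaryocyte list that holds it summed to 1196 and 1134 TPM in iMac. Of 3 tested genes of that list 2 were called higher (66.7%) and 1 lower (33.3%), beside 25.1% and 32.4% of all genes tested. The lower one was Itga2b, an integrin chain of megakaryocytes. The erythropoietin receptor Epor rose from 0.705 and 0.773 to 11.6 and 12.3 CPM, while Hba-a1 of red cells had no counts in iMac. Of the neutrophil list, with a summed level of 50.7 and 44.5 TPM in iMac, Mmp8, a collagenase, rose to 40.9 and 34.8 CPM from 2 counts over MEF, 1433-fold higher (95% counting interval 396 to 11843), and Ly6g had no counts in iMac. Mmp8 was 1 of 2 tested neutrophil genes (50%, beside 25.1% of all genes tested), and the other, S100a8, was not called. The summed level in iMac was 1.80 and 2.29 TPM for T and NK cell genes, 0.266 and 1.10 TPM for B cell genes, 0.0858 and 0.086 TPM for mast cell genes and 9.20 and 8.30 TPM for dendritic cell genes. The dendritic cell list summed to 3.67 and 6.95 TPM in MEF. With all libraries 2 of its 4 tested genes were called higher (50%) and 1 lower (25%), beside 25.1% and 32.4% of all genes tested. Not all of these calls held in each fit that left out 1 library. The T cell gene Cd3g and the B cell gene Ms4a1 had no counts in MEF or iMac. The endothelial list split, with 4 of 9 tested genes higher and 4 lower, 44.4% each beside 25.1% and 32.4% of all genes tested. Emcn, a sialomucin of vessels, at 23.8 and 30.8 CPM in MEF, was at least 608-fold lower, whereas Egfl7, whose gene holds miR-126, and von Willebrand factor (Vwf) rose from 2.44 and 3.76 to 33.0 and 46.6 CPM and from 0.434 and 0.567 to 8.51 and 7.15 CPM. A count of 0 in iMac allows up to 3 counts over the group.

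Transcripts of the Y chromosome and of Xist were present together. Xist, the RNA of the inactive X of female cells, was at 209 and 293 CPM in MEF and 196 and 242 CPM in iMac, with overlapping groups (log2 fold change -0.20 ± 0.20). The Y-linked genes Ddx3y, Eif2s3y, Kdm5d and Uty had counts in every library and rose, Ddx3y from 40.4 and 43.5 to 83.1 and 81.2 CPM, Eif2s3y from 39.1 and 40.5 to 87.6 and 89.2 CPM, Kdm5d from 21.4 and 21.5 to 53.8 and 58.3 CPM and Uty from 14.6 and 14.9 to 44.3 and 36.5 CPM. Of their X-linked partners Ddx3x rose from 439 and 560.1 to 801 and 817 CPM and Kdm6a from 35.1 and 47.4 to 55.8 and 61.9 CPM, while Kdm5c and Eif2s3x were not called. Ddx3x did not pass without iMac library 1 or without iMac library 2 (adjusted p 0.0716 to 0.0785, edgeR). Kdm6a did not pass without MEF library 1 or without iMac library 1 or without iMac library 2 (adjusted p 0.0729 to 0.2, edgeR). Of 24 tested genes of the mitochondrial genome 17 rose (70.8%, against 25.1% of all genes tested), and none of the 24 was called lower. They held 2.20% and 2.84% of counts in MEF and 3.68% and 3.73% in iMac. Ribosomal protein genes held 3.30% and 3.40% of counts in MEF and 5.67% and 5.99% in iMac.

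Genes often used as references did not hold equally. Of 18 such genes 8 rose and 2 fell (2 without iMac library 1 and 3 without iMac library 2 were higher). Rises were 44.4% and falls 11.1% of these genes, beside 25.1% and 32.4% of all genes tested. Beta-glucuronidase (Gusb), a lysosomal enzyme, rose from 76.9 and 61.3 to 758 and 727 CPM (adjusted p = 0.000232, edgeR), which is 3.43 ± 0.16 on the log2 scale. Hprt rose from 71.1 and 61.6 to 191 and 196 CPM and Ywhaz fell from 414 and 459 to 232 and 217 CPM. B2m, the light chain of MHC class I, rose from 419.9 and 297 to 977 and 871 CPM, and Tubb5 fell from 1367 and 1381 to 772 and 865 CPM. Gapdh was at 1398 and 1186 CPM in MEF and 1286 and 1324 CPM in iMac, and its log2 fold change of 0.01 ± 0.13 had a 95% interval of -0.31 to 0.34. The intervals were -0.28 to 0.32 for Tbp, -0.38 to 0.12 for Ppia and -0.30 to 0.64 for Actb, and Actb was called higher without MEF library 1 (adjusted p 0.026, edgeR). These intervals come from the fit and hold on the scale of its normalization. B2m and Tubb5 did not pass without iMac library 1 (adjusted p 0.0508 to 0.0618, edgeR).

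**Figure D5:**
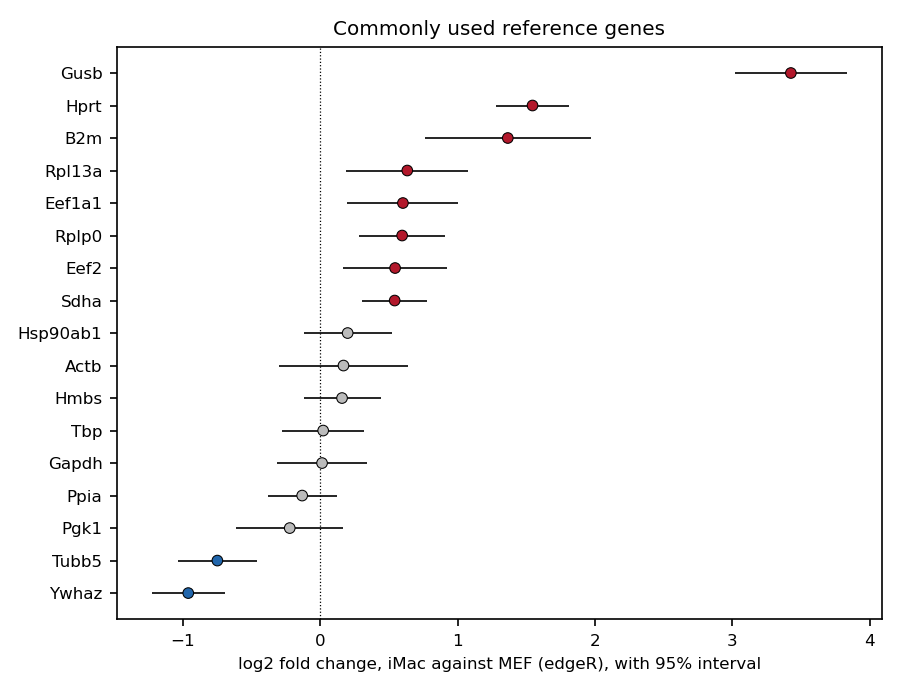
Fitted log2 fold change of iMac against MEF with its 95% interval for 17 of the 18 genes often used as references; red points were called higher in iMac, blue points lower, grey points were not called, and the dotted line marks no change. Gusb and Hprt lie furthest to the right, Ywhaz and Tubb5 to the left, and the intervals of 7 genes drawn include 0.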

How the data were processed

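The authors deposited raw counts of reads per gene, 1 column per library, made with STAR, featureCounts and the mm10 build per the submitters' processing notes. The libraries were VAHTS mRNA-seq v3 libraries of Trizol-extracted total RNA, per the labels' protocols. The tool versions, annotation and strand setting, and how multi-mapping reads were counted, are not stated there, so overlapping, antisense and near-identical genes are uncertain. All 6 count columns were mapped to labelled samples. The lists, pairs and comparisons were chosen with earlier results of these data known, and some list members were named after their values were seen.

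Genes were filtered with edgeR 4.0.16 (filterByExpr, which removed 11832 genes), scaled with TMM and fitted with its quasi-likelihood model on the 6 libraries, with no term besides group. The contrast was iMac minus MEF, two-sided, with Benjamini-Hochberg adjustment over 18613 genes and a threshold of 0.05. Standard errors were computed from that fit, as the absolute log2 fold change over the square root of its F statistic. The 95% intervals were built on these standard errors. The script was tested on simulated data in which far fewer genes changed than were called here, so that run does not cover shifts of this extent. A fit without 1 iMac or MEF library leaves 1 sample in its group, which is then assumed to vary like the other groups. CPM use TMM-scaled totals. TPM use the summed exonic length of GENCODE vM21 (GRCm38), matched by symbol for 29519 genes. Against a group with no counts the fold is a bound computed with 3 counts over the group. With 1 to 3 counts a ratio with its exact 95% counting interval is given. With more than 3 counts the values are given as they are.

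The genes named were the 15 largest gains and 15 largest losses of mean TPM among called genes without overlap, the 10 largest fitted rises and falls at 20 CPM or more (all without predicted genes, the former also without mitochondrial genes), up to 4 members per list with the largest change at 5 CPM or more and the most abundant others, members that moved against their list, both members of each pair, markers, reference genes and Myc. Alternatives were DESeq2 1.42.0, limma-voom (limma 3.58.1), other scalings and filters, a replicate block and the omission of each library in turn. Promoter windows and miRNAs are from RefSeq (GRCm38.p6). A few list and pair members are counted but not reported here by name.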

Additional observations from a re-analysis of the deposited data

How the results depend on the processing

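Between 9908 and 11336 genes were called under every alternative that used all MEF and iMac libraries, except a filter of at least 5 CPM in 2 libraries, which tests fewer genes and called 7979, of them 3972 lower. Leaving out 1 library gave 5173 to 10695 called genes, 2492 to 4378 of them higher and 2678 to 6319 lower, with the lowest counts without an iMac library. Such a fit holds fewer samples, and with 2 libraries per group the omission of 1 iMac library ended the call of 62 of the 246 called genes named here (library 1) or 57 (library 2). Of these 246 genes 230 were called under every alternative that did not leave out a single library. limma-voom did not call 11 of them, more than any other of those alternatives, and the cause was not tested. Among genes not called, the log2 fold change of Tln1 was 0.34 without MEF library 1 (called) and -0.31 without MEF library 2 (not called), and that of Lmnb1 was -0.75 and 0.51, in the same order (both called). DESeq2 also called Rac1, Sufu and Ppia lower, with log2 fold changes from -0.24 to -0.19. Ranking gains and losses by CPM in place of TPM shared 10 of 15 gained and 9 of 15 lost genes.

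With the replicate number as a block 9908 genes were called. Deviations of same-numbered libraries correlated across 18613 genes at r = -0.01 between MEF and iMac. The values were 0.13 between MEF and MCC and 0.0023 between MCC and iMac. Such a correlation cannot tell whether same-numbered libraries share a culture or a batch.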
